A study of Mus musculus with 60 samples.

Results

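The 9 genes described here are 8 aquaporins (Aqp1, Aqp2, Aqp3, Aqp4, Aqp6, Aqp7, Aqp8 and Aqp11) and Avpr2, the V2 receptor for vasopressin. They were given as a list of symbols, and each symbol matched 1 Ensembl gene among the 55335 genes counted. All 9 were among the 15546 genes that reached a counts-per-million (CPM) value of 1 in at least 1 of 60 kidneys. RNA was sequenced from kidneys of 60 male mice on a C57BL/6J background. The 30 cKOt mice were Bmal1lox/lox/Pax8-rtTA/LC1, in which Cre recombinase is induced by doxycycline (DOX) in the renal tubule, so that other kidney cells keep Bmal1. The 30 control mice were their Bmal1lox/lox littermates, and both genotypes drank DOX with sucrose for 2 weeks from 8 weeks of age. Kidneys were taken 4 weeks after DOX at 6 Zeitgeber times (ZT), 4 h apart from ZT0 to ZT20, from 5 mice per genotype and time point. Lights went on at ZT0 and off at ZT12. The tissue is labelled renal tubule, but the methods describe RNA from a frozen piece of the left kidney, and markers of podocytes, vessels and fibroblasts were found in every library.

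Aquaporins are membrane channels that carry water along osmotic gradients, and some of them also carry glycerol. In the collecting duct, vasopressin binds the V2 receptor on principal cells and raises cyclic AMP, after which vesicles holding AQP2 fuse with the luminal membrane. Water then leaves the cell on the blood side through AQP3 and AQP4, while AQP1 serves the proximal tubule and the thin descending limb. BMAL1 is the clock protein that pairs with CLOCK and binds E-boxes in DNA.

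Each library held between 17791420 and 20906706 counts on genes. The RNA integrity number was 7.9 to 9.6, with medians of 9.35 in control and 9.3 in cKOt mice. The 10 most abundant genes took 14.5% to 17.3% of counts in control and 12.6% to 15.7% in cKOt libraries, and the part of this in the results was not tested. Arntl (Bmal1) ran from 2.73 CPM ± 0.825 (SD, n = 5) at ZT8 to 48.4 ± 10.2 at ZT0 in control mice. It stayed between 17.4 and 24.4 CPM, as group means, in cKOt mice. Its counts cover the whole gene and do not separate the deleted part. Replicates were separate mice. One cKOt mouse at ZT16 (replicate 4) is marked for removal in the sample table of the study. It was kept here with its label.

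Promoters of 8 of the 9 genes were found in the RefSeq table of GRCm38.p6, each as 250 bases before the start of the transcript and 50 after it. They were searched on both strands for the E-box CACGTG, which reads the same on both strands. A match occurred in 3 of the 8 genes, Aqp2, Aqp6 and Aqp8, and in 7.15% of the 32851 promoters of this length in the table. No promoter of the other 5 genes held these letters in this window, and none of the 8 genes held the variant CACGTT, the full cyclic AMP response element TGACGTCA or the D-box TTATGTAA. These are found in 4.68%, 1.79% and 0.938% of all promoters. The core TGACG of the cyclic AMP response element, which the full element also contains, was found in 20.8% of all promoters and, of these genes, only in Aqp2. The nuclear receptor core AGGTCA, found in 16.3% of all promoters, was present in Aqp7 and Aqp11. The 250 bases before the start are shown for the genes with an E-box, because of these 3, 1 fell, 1 rose and 1 did not pass the test in cKOt mice. They lie at chr15:99578806-99579055 for Aqp2, chr15:99600950-99601199 for Aqp6 and chr7:123462044-123462293 for Aqp8, all on the + strand. Capitals mark the E-box and, near the left end in Aqp2, the core TGACG on the other strand.
Aqp2: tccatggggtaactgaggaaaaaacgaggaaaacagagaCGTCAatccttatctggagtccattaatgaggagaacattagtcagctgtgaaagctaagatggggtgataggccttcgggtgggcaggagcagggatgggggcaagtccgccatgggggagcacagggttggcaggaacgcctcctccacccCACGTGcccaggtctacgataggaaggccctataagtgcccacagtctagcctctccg
Aqp6: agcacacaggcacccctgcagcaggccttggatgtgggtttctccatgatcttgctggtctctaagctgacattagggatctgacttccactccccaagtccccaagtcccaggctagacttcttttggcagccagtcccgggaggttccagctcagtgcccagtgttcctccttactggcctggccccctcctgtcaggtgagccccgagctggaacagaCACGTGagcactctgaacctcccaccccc
Aqp8: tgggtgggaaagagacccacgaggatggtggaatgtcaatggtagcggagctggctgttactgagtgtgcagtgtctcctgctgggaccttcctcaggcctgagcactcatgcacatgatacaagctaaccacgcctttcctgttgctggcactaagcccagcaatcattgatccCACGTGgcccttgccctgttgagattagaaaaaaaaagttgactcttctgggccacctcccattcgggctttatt
The E-box began 58 bases before the start in Aqp2, 29 in Aqp6 and 75 in Aqp8. These starts are those of the RefSeq transcripts. The whole Aqp6 window ended at chr15:99601249, before the gene start of chr15:99601400 given below. The Aqp1 window likewise ended at chr6:55336348, before the gene start of chr6:55336432. A match is a description of the sequence, and binding was not measured.

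Levels between genes were compared per length, as RPKM, which is CPM divided by the annotated exon length in kilobases. In control mice Aqp1, the water channel of the proximal tubule, was at 338 RPKM ± 31.0 (SD, n = 30), and its lowest mouse lay above the highest mouse of every other member. Aqp2 followed at 42.8 ± 12.8, Aqp3 at 29.1 ± 4.81, Aqp6 at 14.9 ± 2.46 and Aqp7 at 9.12 ± 1.03. This order held for each of these neighbours within 29 or 30 of 30 mice, although the ranges over mice overlapped from Aqp2 to Aqp7. Aqp4 was at 7.68 ± 1.97, Avpr2 at 5.89 ± 1.25 and Aqp11 at 5.60 ± 0.565. These 3 did not stand apart, since Aqp7 was above Aqp4 in 19 of 30 mice, Aqp4 above Avpr2 in 23 and Avpr2 above Aqp11 in 18. Aqp8 was the lowest at 0.585 ± 0.385, below every other member in every control mouse. The length is that of all annotated exons of a gene, 9418 bases for Aqp11 and 6233 for Aqp4, so genes with long rarely used exons are placed too low. In cKOt mice Aqp8 reached 6.66 ± 2.10 RPKM and was above Avpr2, its neighbour in the order, in 14 of 30 mice. Aqp4 was the last there, at 4.17 ± 1.47, with Aqp11 above it in 18 of 30 mice.

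**Figure D1:**
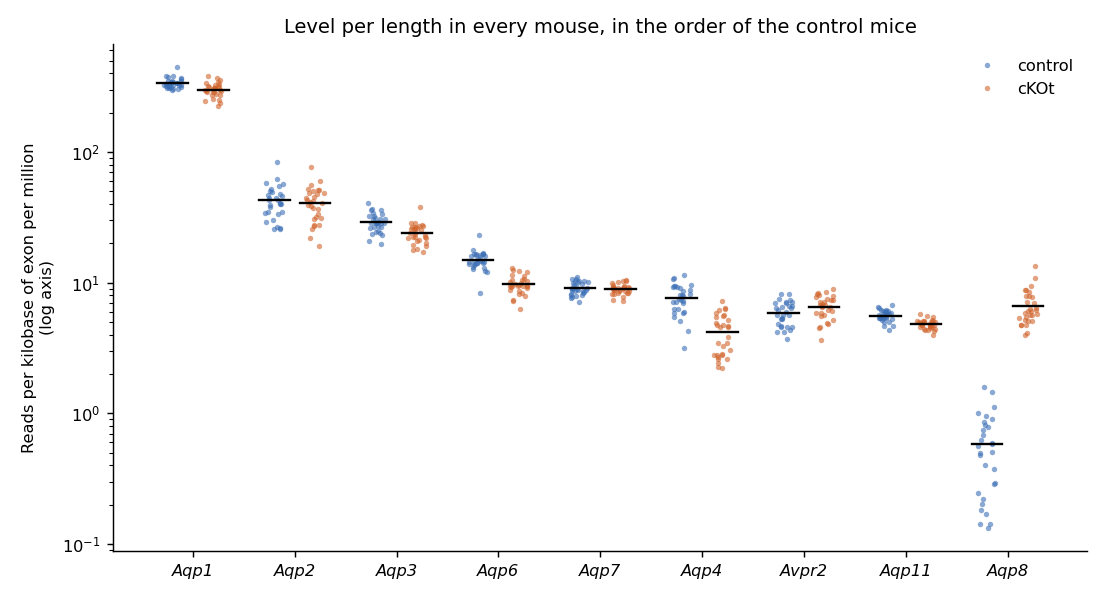
RPKM on a log axis for each gene, with 1 point per mouse (30 per genotype) and a black line at the mean. Aqp1 lies above all others, and Aqp8 is the gene whose control and cKOt mice do not overlap.

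Over the 6 time points, 7 of the 9 genes differed between genotypes at an adjusted p under 0.05 in the quasi-likelihood F test of edgeR, with Benjamini-Hochberg adjustment over all 15546 genes. Aqp1, Aqp3, Aqp4, Aqp6 and Aqp11 were lower in cKOt mice, where 23.2% of all genes were lower. Aqp8 and Avpr2 were higher, where 26.8% of all genes were higher. The median log2 fold change (cKOt over control) was -0.16 over the 9 genes and 0.01 over all genes. Aqp4, Aqp6 and Aqp8 changed by more than 0.5 on the log2 scale, as did 6.50% of all genes. At single time points the number of members called was 3 at ZT0 (12.1% of all genes called), 4 at ZT4 (12.5%), 5 at ZT8 (19.9%), 7 at ZT12 (21%), 5 at ZT16 (19.8%) and 4 at ZT20 (13.8%). Without the mouse marked for removal the same 5 members were called at ZT16. The log2 fold changes there were then -0.93 for Aqp4, 3.84 for Aqp8, -0.16 for Aqp3, -0.11 for Aqp1, 0.05 for Aqp2 and 0.16 for Aqp7, and those of Aqp6, Aqp11 and Avpr2 are given with these genes. In a whole piece of kidney, fewer cells of a type and less RNA per cell cannot be told apart.

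Avpr2 (chrX:73892102-73895502, + strand) couples vasopressin to cyclic AMP. In control mice it was lowest at ZT12, with 15.2, 12.0, 13.2, 10.7 and 12.5 CPM, and at ZT8, with 13.3, 13.2, 14.0, 13.5 and 12.0 CPM. It was high at ZT16, with 23.6, 19.2, 19.0, 20.7 and 17.8 CPM, and at ZT0, with 21.2, 20.0, 16.4, 23.8 and 18.4 CPM. Each of the 5 control mice at ZT16 was thus above each control mouse at ZT8 and ZT12. In cKOt mice the values were 13.0, 16.1, 19.6, 19.7 and 10.4 CPM at ZT12 and 25.7, 23.9, 24.3, 22.5 and 23.5 CPM at ZT16. The receptor rose from ZT12 to ZT16 without overlap in cKOt mice as well, and its time course passed the test in both genotypes (adjusted p = 2.8e-08 in control and 1.6e-05 in cKOt mice). Over the time points Avpr2 was higher in cKOt mice by 0.18 on the log2 scale (SE 0.035, adjusted p = 2.1e-05), or 1.13-fold. The genotypes overlapped at all 6 time points. The difference passed the test at ZT12 (0.34, SE 0.090, adjusted p = 0.0032) and at ZT16 (0.24, SE 0.085, adjusted p = 0.035, or 0.27 with 0.030 without the mouse marked for removal). Without the factors for unwanted variation described under processing, the sizes were close to these, 0.31 at ZT12 and 0.26 at ZT16, but neither passed the test (SE 0.13 and 0.12, adjusted p = 0.099 and 0.19). The call at ZT12 was also lost without replicate 3 or 4 (adjusted p = 0.051 and 0.064) and that at ZT16 without replicate 1, 2 or 3 (0.18, 0.17 and 0.090). Within the 6 batches numbered in the sample table of the study, the difference in mean log2 CPM ran from -0.24 to 0.45 and was negative in 1. Here and for the genes below, the mice of a batch were averaged without matching time points. In batch 5, which gave -0.24, control mice were from ZT0, ZT4, ZT12 and ZT20 and cKOt mice from ZT0, ZT4, ZT8 and ZT12. Time of day thus enters these values, and its part was not tested. Exons of Avpr2 share 2347 of their 2886 bases with exons of Arhgap4 on the opposite strand. The kit kept strand, but the strand setting of the counting is not given in the sources used here, so the count of Avpr2 is uncertain to that extent.

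Aqp2 (chr15:99579055-99584547, + strand), the channel that vasopressin moves to the luminal membrane of principal cells, did not pass the test of genotype. Its 30 control mice ran from 36.3 to 119 CPM with a median of 59.5, and its 30 cKOt mice from 27.0 to 110 with a median of 58.4. The ranges overlapped at every time point. The log2 fold change over the time points was -0.03 (SE 0.060, 95% interval -0.14 to 0.09, adjusted p = 0.75). At single time points it lay between -0.22 at ZT20 and 0.08 at ZT4. The value at ZT4 turned with the processing, to -0.34 without the factors for unwanted variation and -0.33 with batch in their place (adjusted p = 0.32 and 0.34). The mean CPM there, which is not corrected by these factors, was 68.6 ± 14.9 in control and 54.3 ± 17.0 in cKOt mice (SD, n = 5). Aqp2 varied widely between mice of 1 group, with a coefficient of variation of 20.2% to 32.4% in the 12 groups, against a median of 12.3% over all genes. Its time course passed the test in control mice (adjusted p = 0.038) and in 7 of 14 alternatives, and gave an adjusted p of 0.080 in cKOt mice. Its highest mean was at ZT16 in both genotypes, where the control mice held 119, 71.5, 78.7, 62.7 and 58.2 CPM and the cKOt mice 79.6, 60.7, 110, 84.9 and 72.3 CPM.

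Aqp3 (chr4:41092722-41098183, - strand), a channel for water and glycerol on the blood side of principal cells, was lower in cKOt mice. At ZT4 the control mice held 59.0, 58.9, 66.2, 67.2 and 62.2 CPM and the cKOt mice 46.4, 47.0, 40.6, 49.2 and 31.5 CPM. This was the time point without overlap between the genotypes. Over the time points Aqp3 fell by 0.25 on the log2 scale (SE 0.032, adjusted p = 1.6e-09). It passed the test at ZT4 (-0.34), ZT8 (-0.24), ZT12 (-0.38) and ZT20 (-0.30), and gave -0.12 at ZT0 and -0.15 at ZT16 with adjusted p of 0.36 and 0.19. The calls at ZT8 and ZT20 did not hold without the factors for unwanted variation (log2 fold changes of -0.13 and -0.31, adjusted p = 0.60 and 0.15), and that at ZT8 did not hold without replicate 1, 3 or 5 (0.16, 0.18 and 0.099). The difference was negative in each of the 6 batches, from -0.46 to -0.05.

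Aqp4 (chr18:15389496-15410982, - strand), the other channel on the blood side, fell further. In control mice it ranged from 19.6 to 71.7 CPM with a median of 47.9, and in cKOt mice from 13.9 to 45.0 with a median of 26.2. Of the control mice, 18 of 30 lay above every cKOt mouse, and the genotypes did not overlap at ZT0, ZT12 and ZT16. At ZT12 the control mice held 55.2, 37.3, 36.5, 34.3 and 44.5 CPM and the cKOt mice 29.4, 17.7, 20.4, 17.5 and 16.2 CPM. Over the time points the log2 fold change was -0.92 (SE 0.079, adjusted p = 1.2e-14), so that the control level was 1.89-fold higher. A lower log2 fold change was found for 1.36% of all genes. Aqp4 passed the test at all 6 time points, from -1.19 at ZT12 to -0.66 at ZT4. Without the factors for unwanted variation the calls at ZT4 and ZT20 did not hold (log2 fold changes of -0.72 and -0.56, adjusted p = 0.067 and 0.24), and the call at ZT4 was also lost without replicate 2, 3 or 5 (0.11, 0.0503 and 0.15). Within batches the difference ran from -1.08 to -0.70. Its time course did not pass the test in either genotype (adjusted p = 0.68 in control and 0.066 in cKOt mice). The control mouse with the lowest Aqp4 (ZT20, replicate 2, 19.6 CPM) also had the lowest Slc14a2, a urea transporter of the inner medulla, of all 60 mice (12.3 CPM). The part of this in the result was not tested.

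Markers of principal cells are given beside Aqp3 and Aqp4, and the part of any cell type in the values of these genes was not tested. Of 6 such markers 4 rose in cKOt mice (Scnn1b by 0.33, Kcnj1 by 0.24, Scnn1g by 0.21 and Tspan8 by 0.14 on the log2 scale), and Hsd11b2 (0.05) and Fxyd4 (0.01) did not pass the test. Their summed level was 435 to 592 CPM in control and 507 to 663 CPM in cKOt mice, and none was at 0. Kcnj1, the most abundant, is also made in the thick ascending limb.

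Aqp6 (chr15:99601400-99605477, + strand) lies beside Aqp2 in the genome and codes for a channel in vesicles of acid-secreting intercalated cells. At ZT16 the control mice held 56.4, 40.0, 39.9, 39.2 and 39.0 CPM and the cKOt mice 30.2, 23.2, 22.7, 25.1 and 29.1 CPM. The genotypes did not overlap at 5 of the 6 time points, the exception being ZT20, where 1 control mouse had 20.3 CPM. Of the control mice, 25 of 30 lay above every cKOt mouse. Over the time points Aqp6 fell by 0.59 on the log2 scale (SE 0.040, adjusted p = 1.3e-18), to 0.663 of the control level. It passed the test at all 6 time points, from -0.72 at ZT16 (-0.69 without the mouse marked for removal) to -0.49 at ZT20, and within batches the difference ran from -0.78 to -0.52. Of 7 intercalated cell markers 5 rose, and Slc4a1, the chloride/bicarbonate exchanger on the blood side of acid-secreting cells, fell by 0.32 (adjusted p = 3.8e-08). Slc4a9, the most abundant by mean over the cKOt mice and a transporter of bicarbonate-secreting cells, rose by 0.52. Their summed level was 268 to 346 CPM in control and 313 to 392 CPM in cKOt mice.

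Aqp1 (chr6:55336432-55348555, + strand) was lower in cKOt mice by a small amount in many mice. The control mice ran from 779 to 1176 CPM with a median of 869, and the cKOt mice from 591 to 1002 with a median of 790. Of the cKOt mice 13 of 30 lay below every control mouse. At ZT12 the control mice held 779, 849, 826, 809 and 912 CPM and the cKOt mice 669, 760, 591, 764 and 653 CPM, which do not overlap. The log2 fold change was -0.16 over the time points (SE 0.025, adjusted p = 3.3e-07), or -10.5%. At single time points the test passed at ZT12 (-0.25, adjusted p = 0.0014). The genotypes did not overlap at ZT4 either, with at least 858 CPM in control and at most 788 CPM in cKOt mice, and the difference there was -0.18 (adjusted p = 0.059). It passed the test at ZT4 by DESeq2 (adjusted p = 0.041), without the factors for unwanted variation (-0.25, 0.016), with batch in their place (0.022) and without replicate 3 (0.049). It also passed without replicate 3 at ZT8 and ZT16 (0.019 and 0.025) and without replicate 2 at ZT20 (0.025). The difference was negative in all 6 batches, from -0.27 to -0.06. Of 8 proximal tubule markers 3 rose, 4 fell and 1 did not pass the test, with a summed level of 9935 to 13456 CPM in control and 9094 to 14239 CPM in cKOt mice. Slc34a1, the phosphate transporter and the most abundant of them, rose by 0.06 (adjusted p = 0.038), Slc5a12 by 0.30 and Slc5a2 by 0.16. The 4 that fell were Slc22a8 (by 0.97), Slc7a13 (0.37), Slc22a6 (0.27) and Lrp2 (0.09).

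Aqp7 (chr4:41033074-41048139, - strand), the glycerol channel of the late proximal tubule, gave no call for genotype. It was at 20.1 to 31.2 CPM in control and 20.7 to 29.4 CPM in cKOt mice, with medians of 25.3 and 25.5. The log2 fold change was -0.03 over the time points (SE 0.033, 95% interval -0.10 to 0.03, adjusted p = 0.44), and the genotypes overlapped at each time point. It gave no call for time in either genotype (adjusted p = 0.13 in control and 0.37 in cKOt mice).

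Aqp11 (chr7:97724006-97738289, - strand), a channel of the endoplasmic reticulum in proximal tubule cells, was the member whose genotype difference varied with time. At ZT0 the control mice held 53.9, 44.0, 46.9, 40.9 and 49.0 CPM and the cKOt mice 54.0, 44.9, 43.0, 47.1 and 47.6 CPM. At ZT12 the control mice held 57.6, 63.5, 50.3, 61.3 and 57.4 CPM and the cKOt mice 43.6, 46.8, 44.5, 45.9 and 42.4 CPM. The genotypes thus overlapped at ZT0 and stood apart at ZT12, and they also stood apart at ZT8. The log2 fold change was 0.01 at ZT0, -0.20 at ZT4, -0.32 at ZT8, -0.37 at ZT12, -0.33 at ZT16 and -0.08 at ZT20, with calls at ZT8, ZT12 and ZT16 (adjusted p = 0.00039, 2.7e-05 and 0.00021). Without the mouse marked for removal the value at ZT16 was -0.40 and that at ZT4, -0.20, also passed the test (adjusted p = 0.041). Over the time points Aqp11 fell by 0.22 (SE 0.028, adjusted p = 3.7e-09). The test of whether the difference varied between time points passed for Aqp11 alone among the 9 genes (adjusted p = 0.034), where 3.08% of all genes passed. This call is fragile, since it held in 5 of 14 alternatives, with adjusted p of 0.0074 to 0.19, and in none of the 5 that leave out a replicate.

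Aqp8 (chr7:123462291-123468004, + strand), a water channel that also passes ammonia, had the greatest fold change of the 9 genes. In control mice its counts were 4 to 46 reads per library, which made 0.210 to 2.53 CPM, and in cKOt mice 118 to 425 reads, which made 6.30 to 21.3 CPM. All 30 cKOt mice lay above all 30 control mice. At ZT8 the control mice held 0.638, 0.595, 0.318, 0.210 and 0.80 CPM and the cKOt mice 11.3, 17.2, 7.48, 8.57 and 12.4 CPM. At ZT20 the control mice held 1.36, 1.07, 2.30, 1.28 and 0.762 CPM and the cKOt mice 9.78, 10.2, 9.11, 8.41 and 11.0 CPM. The time course of control mice passed the test (adjusted p = 0.00030), with group means of 0.512, 0.457 and 0.533 CPM at ZT8, ZT12 and ZT16 and of 1.35, 1.28 and 1.41 CPM at ZT20, ZT0 and ZT4. Over the time points Aqp8 was 12.4-fold higher in cKOt mice (log2 3.63, SE 0.12, adjusted p = 1.8e-32), the 8th highest log2 fold change of all 15546 genes. It passed the test at all 6 time points, from 2.92 at ZT20 to 4.46 at ZT8, and within batches the difference in mean log2 CPM ran from 3.01 to 4.02. The test of whether this difference varied between time points did not pass (adjusted p = 0.12), and did so in 2 of 14 alternatives.

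**Figure D2:**
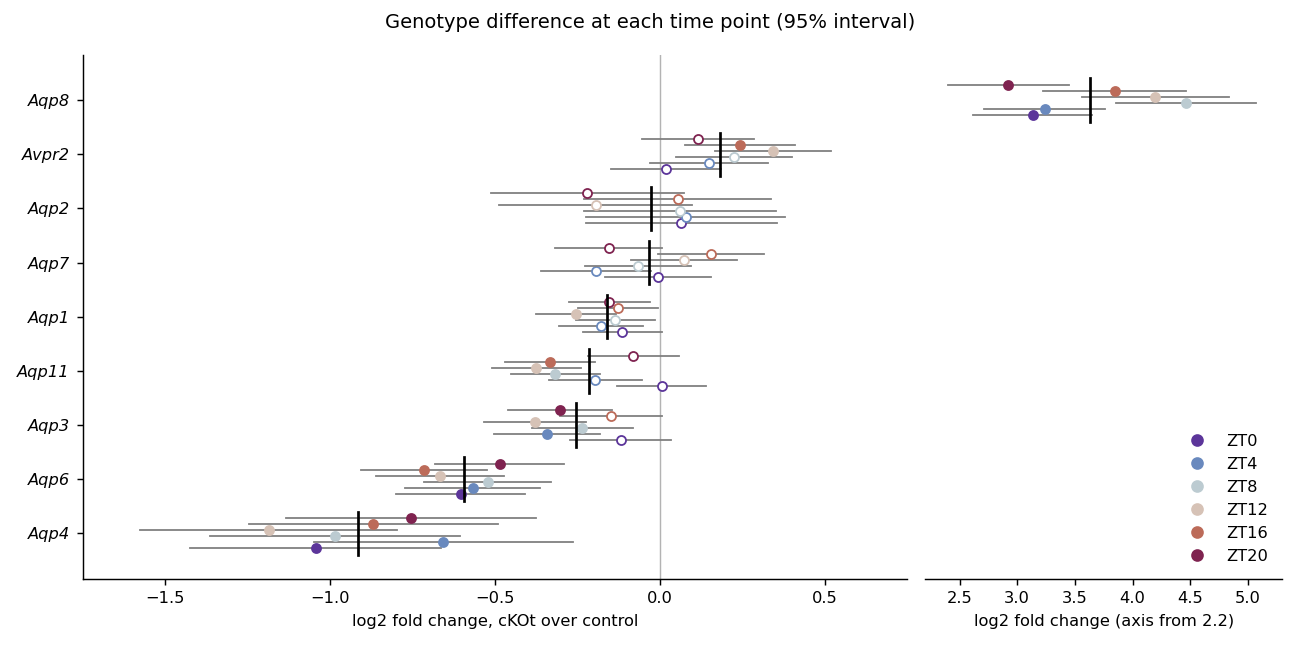
Log2 fold change of cKOt over control mice for each gene, with 1 point and 95% interval per time point (filled where the adjusted p was under 0.05) and a black line at the value over time points. The right panel has its own axis, from 2.2, for Aqp8; Aqp4 and Aqp6 lie left of 0 at all 6 time points.

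The time course over 6 time points passed the test in control mice for 7 of the 9 genes, all but Aqp4 and Aqp7, where 30.6% of all genes passed. In cKOt mice it passed for 3, Aqp1, Aqp8 and Avpr2, where 26.6% of all genes passed. In control mice the call held in all 14 alternatives for Aqp8, Aqp11 and Avpr2, in 12 for Aqp1 and Aqp3, in 10 for Aqp6 and in 7 for Aqp2. In cKOt mice it held in all 14 for Aqp1 and Avpr2 and in 9 for Aqp8. That a test passed in control and not in cKOt mice does not show that the time courses differ, and the test of that difference passed for Aqp11. A 24 h cosine was then fitted, and each gene was given to 1 of 5 rhythm models where the weight of that model by the Bayesian information criterion (BIC) was at least 0.65. Model 1 has no rhythm, model 2 a rhythm in control mice, model 3 a rhythm in cKOt mice, model 4 the same rhythm in both and model 5 a different rhythm in each.

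Model 4 (unaltered rhythm) took Aqp1, Aqp3, Aqp6 and Avpr2, and 25.2% of all genes. Avpr2 had the greatest shared amplitude of these, 0.55 in log2 units between peak and trough, with its peak at ZT20.6 and a weight of 0.733. Aqp1 peaked at ZT19.2 with an amplitude of 0.22 (weight 0.971), Aqp6 at ZT13.2 with 0.29 (0.933) and Aqp3 at ZT7.96 with 0.28 (0.960). In cKOt mice alone, Aqp3 and Aqp6 did not pass the F test of the time course (adjusted p = 0.055 and 0.29). The fitted cosines of the receptor and the proximal channel thus peaked in the later part of the dark phase, and that of Aqp3 in the light phase. The highest measured group means of Avpr2 (20.1 CPM in control and 24.0 in cKOt mice) and Aqp1 (991 and 916 CPM) were at ZT16, before these fitted peaks. Model 2 (rhythm in control mice) took Aqp11, with 6.25% of all genes, at an amplitude of 0.29, a peak at ZT10.7 and a weight of 0.863. Model 1 took Aqp4 (weight 0.915), with 34% of all genes. Aqp2, Aqp7 and Aqp8 reached no weight of 0.65, like 28.7% of all genes. For Aqp8 model 2 had a weight of 0.544 and model 5 of 0.411, and the cosine in control mice had an amplitude of 1.71 with a peak at ZT0.232. Among the assigned genes, Avpr2 lost its model at a weight of 0.8 and without replicate 5, Aqp3 without the RUVs correction and without replicate 4, and Aqp11 without replicate 3 or 4. Aqp2, Aqp7 and Aqp8 took a model under some of the settings.

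**Figure D3:**
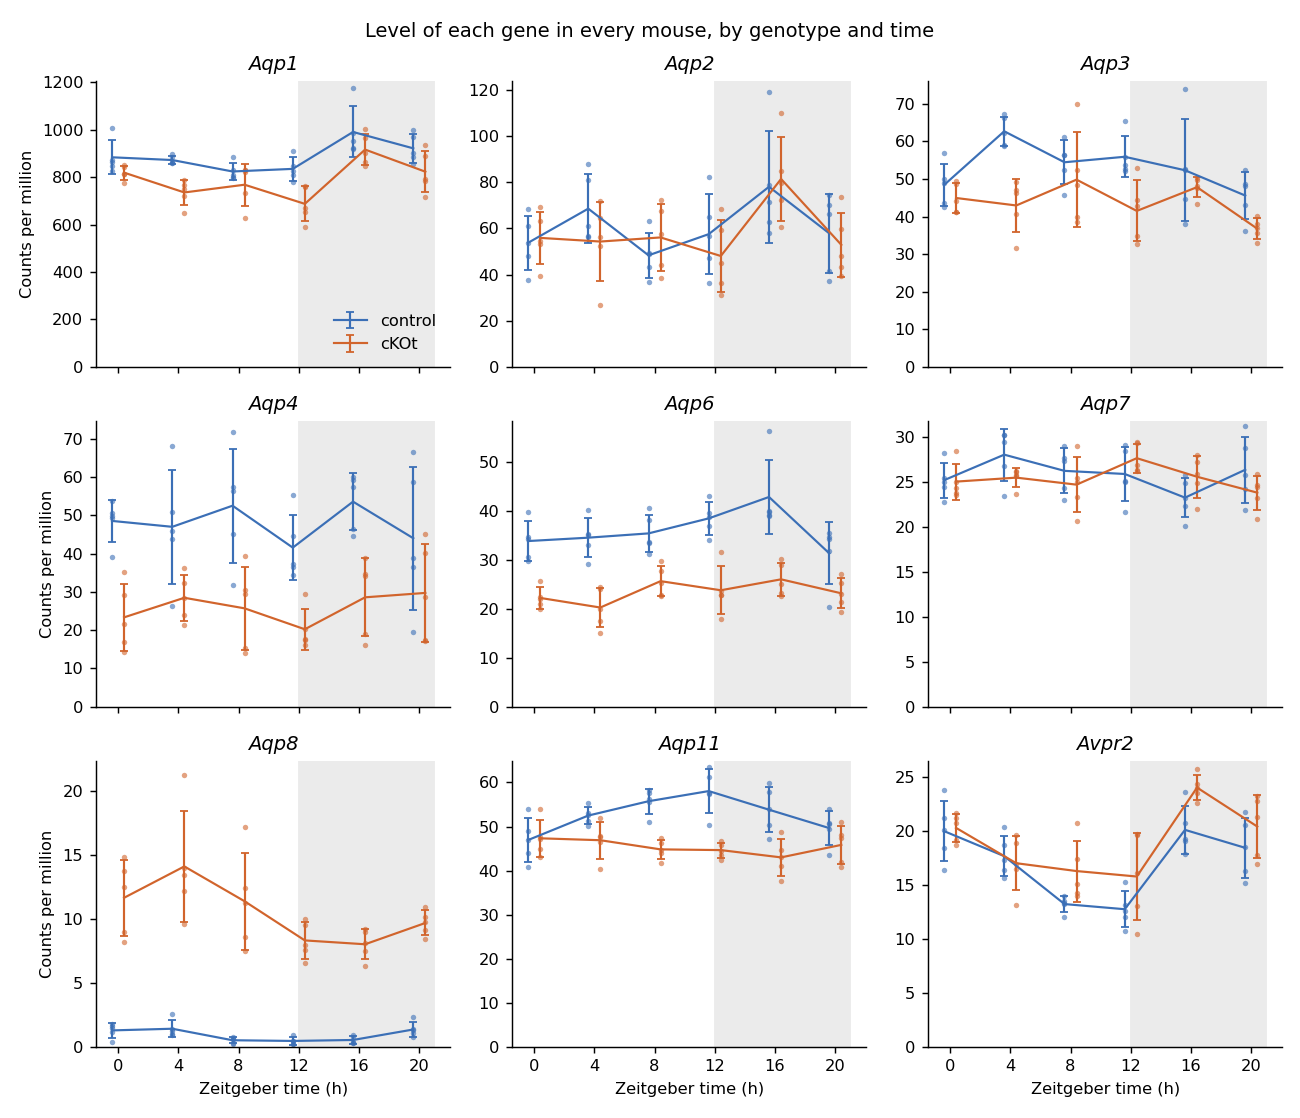
CPM against Zeitgeber time for each gene, with 1 point per mouse, the mean and SD of 5 mice joined by lines, and the dark phase shaded. Aqp8 is apart at every time point, Aqp11 of control mice is highest at ZT12, and Avpr2 is high at ZT16 and low at ZT12 in both genotypes.

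Other genes of the pathway were looked at in 7 lists. Of 79 genes 74 were tested, of which 24 (32.4%) were higher and 16 (21.6%) lower in cKOt mice, against 26.8% and 23.2% of all genes. These shares are near those of all genes, against which the counts of each list should be read, and the log2 fold change over all genes had a median of 0.01. Of the vasopressin receptors and the steps to cyclic AMP, 6 of 16 tested genes rose and 3 fell (median -0.02). Avpr1a, the V1a receptor that signals through calcium, rose by 0.91 (adjusted p = 7.6e-21). It ran from 4.17 CPM ± 0.359 at ZT12 to 11.6 ± 1.99 at ZT0 in control mice and from 12.0 ± 1.31 to 14.6 ± 1.99, as group means, in cKOt mice (SD, n = 5). Its difference varied between time points (adjusted p = 1.2e-07), from 0.19 at ZT0 to 1.56 at ZT8. Prkar1b, a regulatory subunit of protein kinase A, rose by 0.35, Adcy6, the adenylyl cyclase that serves the V2 receptor, rose by 0.16, and Adcy3 fell by 0.21. Gnas, the G protein between receptor and cyclase, gave -0.03 (adjusted p = 0.19).

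Of the phosphodiesterases that break down cyclic AMP, 5 of 10 rose and 2 fell (median 0.11). Pde7b rose by 0.48, Pde4c by 0.32 and Pde3b by 0.23, while Pde4d fell by 0.23. Of 22 genes of AQP2 vesicle traffic 3 rose and 7 fell (median 0.00). Dynll1, a dynein light chain, rose by 0.37 and Myo5b, the motor that carries recycling vesicles, by 0.25, while the vesicle proteins Vamp8 and Vamp3 fell by 0.15 and 0.14. Of 8 receptors that oppose vasopressin, Casr, the calcium sensor, rose by 0.14, and Adra2b, an adrenergic receptor, fell by 0.14.

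Of 9 genes of urea transport and osmolytes 3 rose and 3 fell (median 0.10). Slc6a12, the betaine transporter, rose by 0.59 and Slc14a2, the urea transporter of the collecting duct and thin limbs, by 0.32. Akr1b3, the aldose reductase that makes sorbitol, fell by 0.48, and Gpcpd1, an enzyme that breaks down glycerophosphocholine, fell by 0.21. Of 8 transcription factors of principal cells that were tested 6 rose and none fell (median 0.18), with Grhl2 at 0.28, Tfcp2l1 at 0.26, Gata2 at 0.20 and Elf3 at 0.18. Of the 4 other aquaporins, Aqp5 passed the filter and gave 0.02 (adjusted p = 0.97), Mip had no read in any library, and Aqp9 and Aqp12 were below 1 CPM in every mouse.

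**Figure D4:**
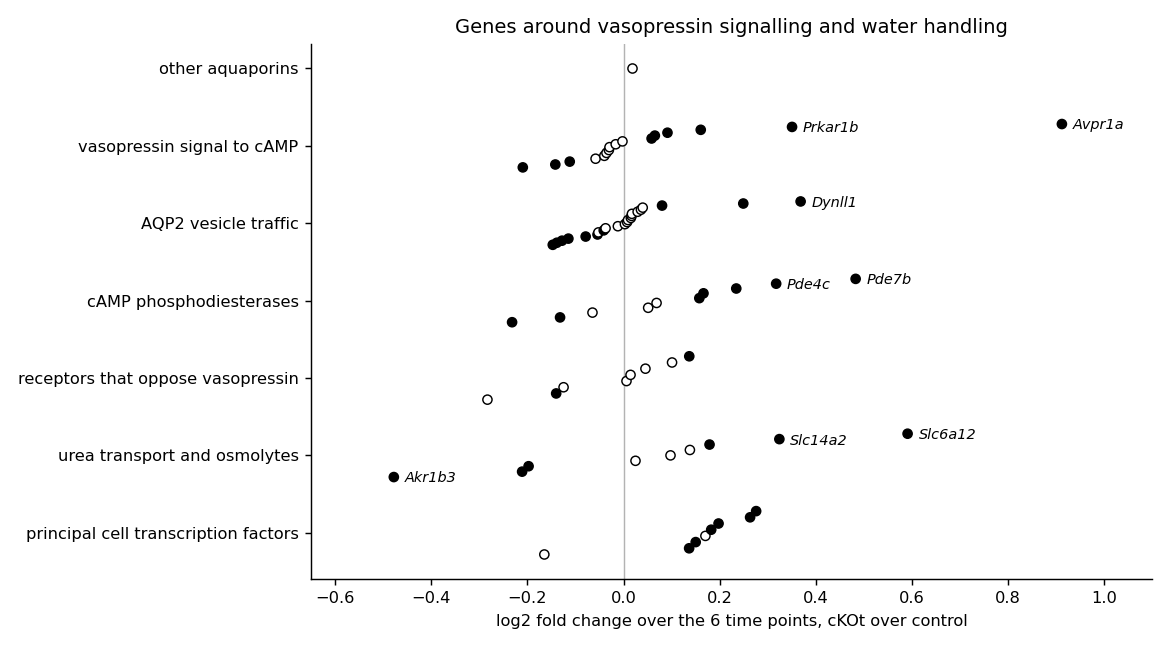
Log2 fold change of cKOt over control mice over the 6 time points for the tested genes of 7 lists, filled where the adjusted p was under 0.05. Names are given beyond 0.3 in size; Avpr1a is farthest to the right at 0.91 and Akr1b3 farthest to the left at -0.48.

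Marker lists of the other cells in the tissue also moved. All 6 endothelial markers were lower (median -0.10), with a summed level of 379 to 482 CPM in control and 342 to 464 CPM in cKOt mice, led in abundance by Kdr. Of 5 fibroblast markers 4 were lower (median -0.20), and Pdgfra, the most abundant, did not pass the test (-0.11, adjusted p = 0.14), with 50.4 to 212 CPM against 70.4 to 182 CPM. Of 6 macrophage markers 5 were lower (median -0.22), including Cd74, the most abundant, at -0.34, with 140 to 264 CPM against 115 to 211 CPM. Of 5 podocyte markers 1 rose, with 286 to 419 CPM against 295 to 395 CPM and Podxl as the most abundant. In the thick ascending limb list 3 of 4 rose and Umod, the most abundant, fell by 0.41, with 2885 to 5634 CPM against 3463 to 4779 CPM. Of 4 markers of the distal convoluted tubule 3 rose (median 0.17, led by Slc12a3), with 1263 to 1764 CPM against 1343 to 1993 CPM. Markers of urothelium, fat cells and red cells gave no call, with summed levels of at most 18.9, 17.7 and 4.42 CPM, and the 2 tested markers of T and B cells fell (median -0.43), at no more than 3.09 CPM in sum. Several of these changes were as large as those of Aqp1, Aqp3, Aqp11 and Avpr2. The part of these shifts in the values of the 9 genes was not tested.

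For each member the genes with the most similar profile over the 12 group means of log2 CPM were found among 13766 genes, as a description with no test. Aqp8 was followed most closely by Smim3, Dcdc2a and Mrps35 (Pearson r of 0.986, 0.985 and 0.984). For Aqp6 these were Ndrg2, Gm13412 and Cdhr5 (0.977, 0.974 and 0.971) and for Aqp4 Gstm1, Aacs and Alb (0.962, 0.961 and 0.953). Aqp11 had Ndel1, Mcm10 and Dnph1 (0.976, 0.949 and 0.948), and Aqp1 had Preb, Evc and Trim47 (0.976, 0.972 and 0.971). Avpr2 had Ssr2, Mrps27 and Erp29 (0.960, 0.960 and 0.959), and Aqp3 had Tom1l2, H2-DMb1 and Acaa1a (0.955, 0.951 and 0.949). Aqp2 had Gmppa, Vps37c and Mrps12 (0.957, 0.917 and 0.912). Aqp7 had Rpain, Tfcp2 and Cyp4f15 at 0.864, 0.787 and 0.774, the lowest values of the 9 genes. Among the members themselves Aqp4 and Aqp6 were most alike (r = 0.882), and Aqp6 and Aqp8 were most opposed (r = -0.959). All these profiles come from the same 60 libraries. The 12 group means span both genotypes, so a genotype difference enters r together with the time course.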

How the data were processed

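RNA from kidneys of 60 mice was sequenced by the authors as single reads of stranded poly(A) libraries. The deposited values are raw read counts per Ensembl gene, made by the authors with cutadapt 1.8, STAR 2.5.3a and HTSeq 0.9.1 on GRCm38 according to the submitters' processing notes, without normalization or pooling. Gene symbols and positions come from GENCODE mouse release M21 on the same build. The annotation release and strand setting of the counting are not given in the sources used here. The 5 tally lines of the counting program were left out.

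Groups came from the labels. The authors kept 5 of 6 mice per group by RNA quality and by distance from the others in expression, which can narrow the spread between replicates. Members, gene lists, and tests were chosen with earlier results of these data known. Genes that reached 1 CPM in any library were kept, libraries were scaled by TMM, and 12 group means plus 2 RUVs factors of unwanted variation (estimated from replicates) were fitted in edgeR 4.0.16, with the quasi-likelihood F test and Benjamini-Hochberg adjustment over all 15546 genes. CPM values printed are TMM-scaled and not corrected by RUVs. The fits followed the study in the filter, RUVs and rhythm models, with limma 3.58.1 and DESeq2 1.42.0 as alternatives under R 4.3.3. Rhythm models were compared by BIC weights on corrected log2 CPM (prior count 2). Intervals are 1.96 SE to each side of a log2 fold change. The fits were tested on simulated data. That simulation gave all genes the same spread beyond counting noise, so it does not cover the wider spread of Aqp2 and Aqp4 between mice.

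All 9 members were named throughout. Of each pathway list the 4 genes with the greatest absolute log2 fold change among those called were named, of each marker list the most abundant gene, and for each member the 3 genes most like it over the 12 group means, among genes with a mean of at least 1 CPM. Gnas, Aqp5 and the other aquaporins, single marker genes and intercalated cell markers beyond that rule were named after their values were seen. Replicate numbers of different groups were checked for pairing: deviations from group means correlated by 0.0043 on average over 330 pairs of libraries with the same number and by -0.0010 over 1320 others, so the numbers did not pair the mice. No library pair of 1 group came close to counting noise, the mean squared difference being at least 5.57 times it. Intervals and counts reflect 17791420 to 20906706 reads on genes per library.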

Additional observations from a re-analysis of the deposited data

Results flagged for a closer look

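Within groups of 5 mice, 7 of 108 gene and group combinations held a mouse far from the others by Dixon's test, where chance alone gives about 1 in 20. The highest mouse stood apart for Aqp1 in control mice at ZT0 (1008 CPM, others 825 to 874) and at ZT16 (1176 CPM, others 917 to 988). The same held for Aqp3 in control mice at ZT12 (65.3 CPM, others 52.1 to 55.8), Aqp6 in control mice at ZT16 (56.4 CPM, others 39.0 to 40.0) and Aqp7 in cKOt mice at ZT0 (28.5 CPM, others 23.6 to 25.0). The lowest mouse stood apart for Aqp6 in control mice at ZT20 (20.3 CPM, others 31.9 to 35.5) and for Aqp7 in cKOt mice at ZT4 (23.6 CPM, others 25.6 to 26.2). The mouse with the highest Aqp1 and Aqp6 at ZT16 was control replicate 1, which was also the highest of its group for Aqp2, Aqp3 and Avpr2 and the lowest for Aqp4, Aqp7 and Aqp8. The mouse with the lowest Aqp6 at ZT20, control replicate 2, was the lowest of its group for Aqp2, Aqp4, Aqp7 and Avpr2 as well. The genotype difference of Aqp11 differed between time points by the interaction test in edgeR (adjusted p = 0.034), with cKOt mice at the control level at ZT0 and below it at ZT8, ZT12 and ZT16.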

How the results depend on the processing

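Each result was recomputed under 14 alternatives, or 11 for the rhythm models. Direction and call over the time points held for the 7 called genes in all 14, with log2 fold changes of 3.53 to 3.83 for Aqp8, -0.96 to -0.87 for Aqp4 and 0.15 to 0.20 for Avpr2, and the 7 members stayed called whichever replicate was left out. With the replicate number as a block 7734 genes were called over the time points, against 7778 without it. The block added Avpr2 at ZT8 (log2 0.23, adjusted p = 0.048) and the time course of Aqp4 in cKOt mice, removed that of Aqp2 in control mice, and changed no other call of a member.

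Without RUVs factors or with batch in their place, the number of genes called was 983 and 1130 at ZT0 (1884 as reported), 2013 and 1991 at ZT8 (3095), 1853 and 1829 at ZT16 (3071), 1407 and 1419 at ZT20 (2140), and 263 and 312 for the variation between time points (479), and it was 3091 at ZT4 with batch (1950). Members called were then 2 at ZT20 (4), 0 for the variation between time points (1) and 4 for the time course in control mice (7), by both. The genes called for that time course also fell, to 3458 and 3774 (4755). For the variation between time points 2 members were called by DESeq2, where 685 genes were called (479 as reported). With no filter or filterByExpr 0 members were called, where 395 and 452 genes were called. At an unadjusted p under 0.05 in edgeR, 3 members passed with no filter, filterByExpr or batch, and 2 without RUVs factors. With a replicate left out this ran from 1 (without replicate 1 or 3) to 4 (without replicate 5). The share of all genes at this unadjusted threshold was not counted, so these counts are not a result about the members. Leaving out a replicate gave 0 to 1 members and 233 to 429 genes for the variation between time points. The member called there was Aqp8, without replicate 5, and not Aqp11. The time course passed for 4 to 7 members and 3468 to 3958 genes (4755) in control mice. In cKOt mice it passed for 2 to 5 members and 2608 to 3375 genes (4142). A rhythmic model took 3 to 6 members (5) and 5169 to 5427 genes (5794).

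Directions reversed only for values that were not called. Aqp2 at ZT4 (0.08) became -0.0049 with no filter, -0.34 without RUVs factors and -0.33 with batch, and Avpr2 at ZT4 (0.15) became -0.054 and -0.063 under the last pair. Aqp11 at ZT0 (0.01) became -0.010 with DESeq2 size factors, -0.0094 by DESeq2, -0.0095 with no filter and -0.0061 with filterByExpr, and -0.037 to 0.029 without a replicate. Ranges without a replicate were -0.064 to 0.0405 for Aqp2 over time points, -0.049 to 0.13 for Aqp2 at ZT0, -0.052 to 0.18 at ZT4, -0.060 to 0.045 for Aqp7 at ZT0, -0.015 to 0.13 at ZT12, and -0.028 to 0.094 for Avpr2 at ZT0. The causes of these changes were not tested. Depth limits Aqp8 in control mice most, at 4 to 46 reads.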
